A study of Mus musculus with 4 samples.

Results

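The genes described here code for the proteins of the cytosolic ribosome in the mouse retina after inhibition of miR-124-3p. They were chosen by name: protein-coding genes whose symbol is that of a numbered large (Rpl) or small (Rps) subunit protein with at most 1 of the suffixes a, l and x, together with the stalk genes Rplp0, Rplp1 and Rplp2, and Rpsa. The rule found 81 of the 48897 genes in the deposited table, 31 of the small and 50 of the large subunit. The symbols Rpl6l and Rps4l also fit the pattern, but both rows are annotated as pseudogenes and were left out.

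All 4 libraries were made from retinas of C57BL/6 mice whose genotype is labelled as wild type, taken on postnatal day 9. On postnatal day 3 the left eye received an intravitreal injection of 0.6 nmol of a miR-124-3p antagomir in 1 μl (anti-miR-124 group, 2 libraries), and the right eye the same amount of a scrambled sequence (NC group, 2 libraries). An antagomir is a chemically modified antisense oligonucleotide that binds a mature microRNA, which these libraries do not measure. Each group was drawn from mice of several litters and the retinas were mixed. With mixed retinas, p-values measure only the spread between these libraries. Since the antagomir went to left eyes and the control to right eyes, the eye and the injected oligonucleotide cannot be told apart. Each number in the column names stands for 1 library per eye, and these couples are named pair A and pair B here. The SE given with a fold change is the standard error of the fit.

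Ribosomal proteins assemble with ribosomal RNA into the small subunit, which reads the mRNA, and the large subunit, which joins amino acids and releases the growing chain through an exit tunnel. Most of their mRNAs begin with a C followed by a run of pyrimidines, the 5′ terminal oligopyrimidine (TOP) sequence. Through this sequence the mTOR pathway controls their translation. A ribosome takes nearly all of its proteins in equal number, and these mRNAs are among the most abundant in a cell. Photoreceptors in the postnatal retina renew membrane protein at a high rate.

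No ribosomal protein gene passed the test of the difference between the groups, which was run across all genes. Of the 81 genes, 78 passed the filter on low counts, and 0 of these had an adjusted p-value (Benjamini-Hochberg, edgeR's quasi-likelihood test) under 0.05, with 0% of all 17766 genes tested passing as well. The smallest adjusted p among the 78 genes was 0.989. At an unadjusted p under 0.05, 4 of the 78 differed by edgeR's test, against 3.91% of all genes tested. DESeq2's Wald test called 0 of the 78 after adjustment and 3 at an unadjusted p under 0.05. For the 76 genes other than the weakly counted Rpl3l and Rps27l, the 95% interval of the log2 fold change reached between 0.157 and 0.301 to either side of the estimate. In 75 of these 76 genes the whole interval lay between -0.5 and 0.5, and that of Rpl39 reached below it, to -0.63.

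The ribosomal protein genes took up 1.37% of all counts in the pair A NC library (223066 of 16317239, 95% Wilson interval 1.36% to 1.37%). In the pair A anti-miR-124 library they took up 1.32% (227064 of 17150849, 1.32% to 1.33%). The shares in pair B were 1.27% in the NC library (228332 of 17992340, 1.26% to 1.27%) and 1.23% in the anti-miR-124 library (230723 of 18726963, 1.23% to 1.24%). These intervals cover counting error only. The mean share was 1.32% ± 0.0693 (SD, n = 2) for NC and 1.28% ± 0.0650 (SD, n = 2) for anti-miR-124, so that the groups overlapped. In each pair the anti-miR-124 library had the lower share, and both libraries of pair A had a higher share than either library of pair B. As a share of the TPM sum (counts per gene length, set to the same sum in each library) they took 4.81% (NC) and 4.95% (anti-miR-124) within pair A, against 4.79% (NC) and 4.63% (anti-miR-124) within pair B, so that pair A turned the other way on this scale. With lens genes left out of the TPM sum, the pair A NC library had 5.16% and the others kept 4.95%, 4.79% and 4.63%. In bulk retina, fewer cells of a type and less RNA per cell cannot be told apart.

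With TMM, the difference between the pairs was shared by nearly all of these genes. Relative to the mean of the 4 libraries on the log2 scale of library-scaled counts (CPM, TMM-normalized), the median gene of pair A lay at 0.10 for NC and 0.04 for anti-miR-124. In pair B it lay at -0.04 for NC and -0.09 for anti-miR-124. Between the NC libraries, 76 of the 78 genes were higher in pair A than in pair B, against 50.4% of all genes tested. Between the anti-miR-124 libraries, 73 of 78 were higher in pair A, against 46.4% of all genes tested. The difference between libraries of 1 group was larger than that between the groups: its median was 0.13 for NC and 0.12 for anti-miR-124, where all genes tested had medians of 0.00 and -0.02. Scaling by TPM shifted the median of all genes between the NC libraries to -0.13, and relative to it the ribosomal protein genes were 0.13 higher in pair A, as with TMM.

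**Figure D1:**
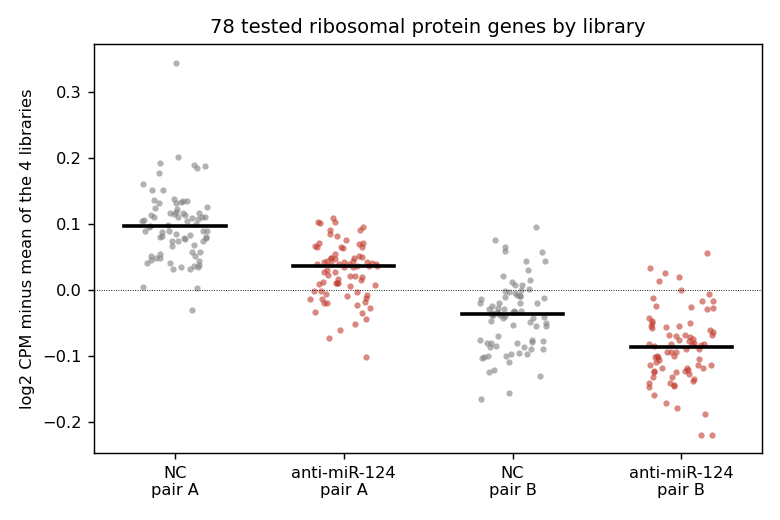
Each point is 1 of the 78 tested ribosomal protein genes, grey for NC and red for anti-miR-124 libraries, plotted as its log2 CPM (TMM-normalized) minus its mean over the 4 libraries, with the median as a black bar. The medians descend from 0.10 in the pair A NC library to -0.09 in the pair B anti-miR-124 library, with the pairs further apart than the groups. Under TPM scaling, 40 of the 78 genes were higher in the NC library of pair A than in that of pair B.

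Within the pairs, the genes leaned to lower values in the anti-miR-124 group. The median log2 ratio of the anti-miR-124 over the NC library was -0.07 in pair A, where 62 of 78 genes were lower, and -0.06 in pair B, where 56 were lower. With TPM scaling the median in pair A turned to 0.04, while that of all genes tested moved from -0.01 to 0.10, and in pair B it stayed at -0.06. Relative to the median of all genes, the ribosomal protein genes lay at -0.06 in both pairs under TMM, and at -0.06 in both under TPM scaling, but at -0.02 in pair A and -0.08 in pair B once gene length was corrected for. In all, 45 of 78 genes (57.7%) were lower in both pairs, against 24% of all genes tested, and 5 were higher in both, against 22.8%. These counts became 12 and 16 under TPM scaling, and 43 and 7 once the median of all genes was subtracted there. As fitted over all 4 libraries, the median log2 fold change was -0.05 (0.00 for all genes tested), with 64 of 78 genes below 0 against 49.8% of all genes. Under TPM scaling the median was 0.00, against 0.05 for all genes.

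The fitted group difference changed when a library was left out. The median log2 fold change of the 78 genes was 0.01 when the pair A NC library was left out, and also 0.01 when the pair B anti-miR-124 library was. Leaving out the pair A anti-miR-124 library gave -0.11, and leaving out the pair B NC library gave -0.12. The fit holds no term for the pair. With 1 library left out, the groups are not balanced over the pairs, so these values include the difference between the pairs. Only 12 genes were lower in both anti-miR-124 libraries than in both NC libraries, against 16.8% of all genes tested, and 1 was higher, against 16.5%. As a share of 78 genes, the 12 amount to 15.4%, close to the background.

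**Figure D2:**
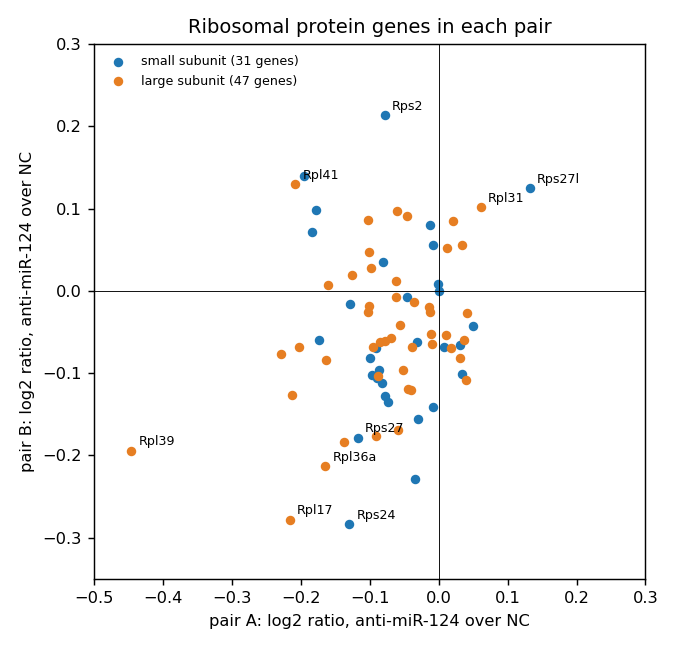
Each point is a ribosomal protein gene, placed by its log2 ratio of the anti-miR-124 over the NC library (CPM, TMM-normalized) in pair A (horizontal) and pair B (vertical), blue for the small and orange for the large subunit. The lower left quadrant holds 45 of the 78 genes and the upper right 5 (12 and 16 under TPM scaling), and Rpl39 lies apart at the far left.

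The spread around this common level was narrow. Over the 78 genes the SD of the log2 ratios was 0.087 in pair A and 0.098 in pair B, with ranges of -0.45 to 0.13 and -0.28 to 0.21. The ratios of the pairs were weakly related across genes, with a Pearson's r of 0.21 over 78 genes, which share their libraries and are not independent replicates. A fitted log2 fold change beyond 0.2 in either direction was found for 3 genes (3.85%), against 3.15% of the 4888 other genes with mean counts in the same range (857 to 8045, lens genes left out). The median gene had a range of 0.21 over the 4 libraries, against 0.16 in those other genes. Median ratios (log2) were -0.08 and -0.07 for the small subunit genes and -0.06 in both pairs for the large subunit genes.

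Ribosomal protein genes are short, and gene length moved with the differences between libraries. The 33 members under 700 bases had median log2 ratios of -0.09 in pair A and -0.07 in pair B, where the 32 other genes of that length and count range had -0.01 and 0.01. Between the NC libraries, pair A minus pair B, these short members had a median of 0.14 and the other short genes 0.06. A correction for length lowered the difference between the NC libraries, relative to all genes, from 0.13 to 0.06, and that between the anti-miR-124 libraries from 0.14 to 0.13. Relative to all genes, it moved the median ratio of anti-miR-124 over NC from -0.06 to -0.02 in pair A and from -0.06 to -0.08 in pair B. The gap between the NC libraries was then no longer larger than the group difference of pair B, and 33 genes were lower and 8 higher in both pairs. The part of RNA quality or fragment size in these values was not tested.

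By level, the genes formed 1 broad plateau with a few genes far below it. The highest mean TPM was 1515 for Rplp1, a protein of the acidic stalk that recruits translation factors, with 1530 and 1512 for NC and 1571 and 1449 for anti-miR-124 in pairs A and B. Next were Rpl7 with 1342, Rps14 with 1172, Rpl41, the smallest ribosomal protein, with 1130, and Rpl23a, a docking site at the tunnel exit, with 1113. The 5 genes do not separate from their neighbours beyond the libraries' spread except for Rplp1 and Rpl7, whose lowest libraries (1449 and 1264) lay above the highest library of Rps14 (1248). Among all 48897 genes, 2 ribosomal protein genes stood in the first 50 by mean TPM, 14 in the first 100, 45 in the first 200 and 69 in the first 500. Leaving aside Rps27l and the 4 genes far below the plateau, 76 genes remained. Their mean TPM ranged from 94.8 for Rps15a to 1515 for Rplp1, with a median of 592 and quartiles of 423 and 825.

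The deposited gene length can set a place in this order. Rps24 stood at rank 73 of 81 by TPM, with a deposited length of 3432 bases, and at rank 50 when its counts were divided by the length of its principal GENCODE M21 transcript, 1613 bases. Rps20 and Rps15a stayed low on both scales, at ranks 75 and 76 by TPM and 77 and 76 by transcript length. With TMM, fold changes of a gene between libraries do not depend on the deposited length. TPM scaling and the length correction do use the deposited lengths.

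**Figure D3:**
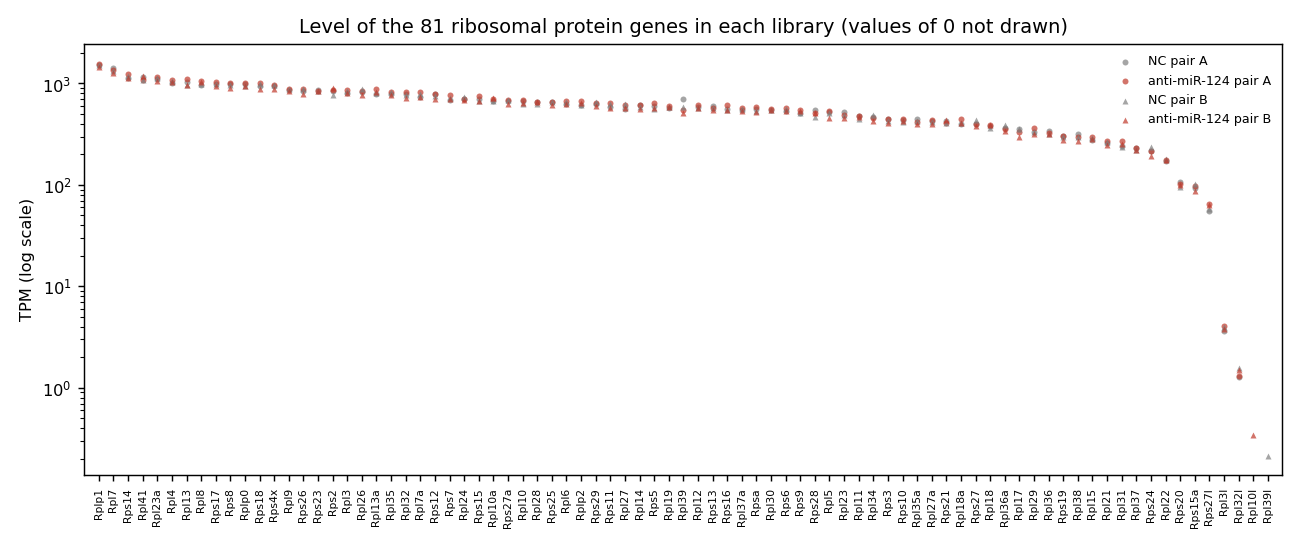
TPM of the 81 ribosomal protein genes in each library on a log axis, ordered by mean TPM, circles for pair A and triangles for pair B, grey for NC and red for anti-miR-124 libraries. Most genes form a plateau with the 4 libraries on top of each other, and Rpl3l, Rpl32l, Rpl10l and Rpl39l lie far below it.

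Most of the genes far below the plateau are paralogs known from other tissues. Rpl39l, the testis counterpart of Rpl39, had 1 count in the pair B NC library and 0 in the other 3 libraries. Rpl10l, a testis gene that stands in for X-linked Rpl10, had 2 counts in the pair B anti-miR-124 library and 0 elsewhere, where a count of 0 allows up to 3 counts. Rpl32l had 4 or 5 counts in every library. These 3 genes did not pass the filter. Rpl3l, the heart and skeletal muscle counterpart of Rpl3, had 57 and 64 counts in the NC libraries against 62 and 64 in the anti-miR-124 ones, which is 0.451% to 0.474% of the summed TPM of Rpl3 and Rpl3l.

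The 5 lower genes with the smallest p-values were Rpl39, Rpl17, Rpl36a, Rps24 and Rps27, all with CPM in both anti-miR-124 libraries below that of either NC library. The 4 genes with an unadjusted p under 0.05 were the first 4 of these, and so all lower (5.13% of 78, against 1.68% of all genes), and 0 were higher (against 2.23%). This count of 4 became 0 when the pair A NC library was left out, and also when the pair B anti-miR-124 library was. It was 8 without the pair A anti-miR-124 library, 2 without the pair B NC library, and 1 under TPM scaling.

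Rpl39, an X-linked gene for a very small protein that lines the exit tunnel, had 1603 and 1391 counts in the NC libraries of pairs A and B, against 1247 and 1269. The pair A NC library stood highest. In TPM the NC libraries had 696 and 590, against 550 and 514. The log2 fold change was -0.33 (SE 0.13, adjusted p = 0.989, quasi-likelihood test in edgeR), and -0.13 without the pair A NC library. Without the filter on low counts the adjusted p was 0.034 (edgeR), in a setting where many other genes also passed 0.05, against 0 in the main fit. Over the other alternatives the adjusted p of Rpl39 ranged from 0.155 to 1.

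Rpl17, a chromosome 18 gene whose protein also sits at the tunnel exit, had 2513 and 2576 counts in the NC libraries against 2293 and 2217 in the anti-miR-124 ones. Its log2 fold change was -0.25 (SE 0.09), and -0.15 without the pair B anti-miR-124 library. Rpl36a, X-linked and located at the tRNA exit site, had 954 and 1042 counts against 902 and 938. Its log2 fold change of -0.19 (SE 0.07) lay between -0.23 and -0.14 with each library left out.

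Rps24, a small subunit protein needed for processing of ribosomal RNA, had 3960 and 4395 counts in the NC libraries against 3837 and 3768 in the anti-miR-124 ones. The difference was larger in pair B, with a log2 ratio of -0.28 against -0.13 in pair A. The fitted log2 fold change was -0.20 (SE 0.08), and -0.12 without the pair B anti-miR-124 library. Rps27, a zinc finger protein of the small subunit, had 1218 and 1350 counts against 1190 and 1245 and a log2 fold change of -0.15 (SE 0.07). All 5 genes were lower under each normalization tried, TPM scaling included, and each had an adjusted p of 0.989.

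Rps27l, the paralog of Rps27 that p53 induces, was the 1 gene higher in both anti-miR-124 libraries than in both NC libraries. Its counts were 351 and 375 for NC and 408 and 427 for anti-miR-124, with a log2 fold change of 0.13 (SE 0.09, adjusted p = 0.989, quasi-likelihood test in edgeR). Of the summed TPM of Rps27 and Rps27l, the paralog made up 12.2% and 11.8% for NC and 14.2% in each anti-miR-124 library. Fitted fold changes (log2) of the 10 p53 target genes used for comparison centred on 0.08 (median), with 0 past an unadjusted p of 0.05 (edgeR). In both pairs 5 of these 10 were higher and 2 lower, against 22.8% and 24% of all genes tested. By pair, the median ratio (log2) of the 10 p53 targets was 0.007 in pair A and 0.19 in pair B. Phlda3 among them had 41 and 48 counts in the NC libraries against 55 and 104 in the anti-miR-124 ones, and Ccng1 had 1601 and 1558 against 1502 and 1511 (log2 fold change -0.14, SE 0.09). Under TPM scaling the p53 targets higher in both pairs numbered 7, and 1 was lower in both. Of all 17766 genes tested, 5741 were then higher and 2632 lower in both pairs. With the median of all genes subtracted there, 5 p53 targets were higher and 3 lower in both pairs.

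The other named members with positive values had fold changes smaller than their SE. Rpl31, at the tunnel exit, had 1622 and 1607 counts in the NC libraries against 1794 and 1800, a log2 fold change of 0.08 (SE 0.09), and 0.17 without the pair A NC library. Rps2, at the mRNA entry site, went in opposite directions in the pairs, with 4450 against 4467 counts in pair A (log2 ratio -0.08 in CPM) and 4208 against 5093 in pair B (0.21). Rplp2 of the stalk had a log2 fold change of 0.05 (SE 0.08), and Rpl13a, known for a second role in silencing inflammatory mRNAs after interferon gamma, of 0.04 (SE 0.08).

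**Figure D4:**
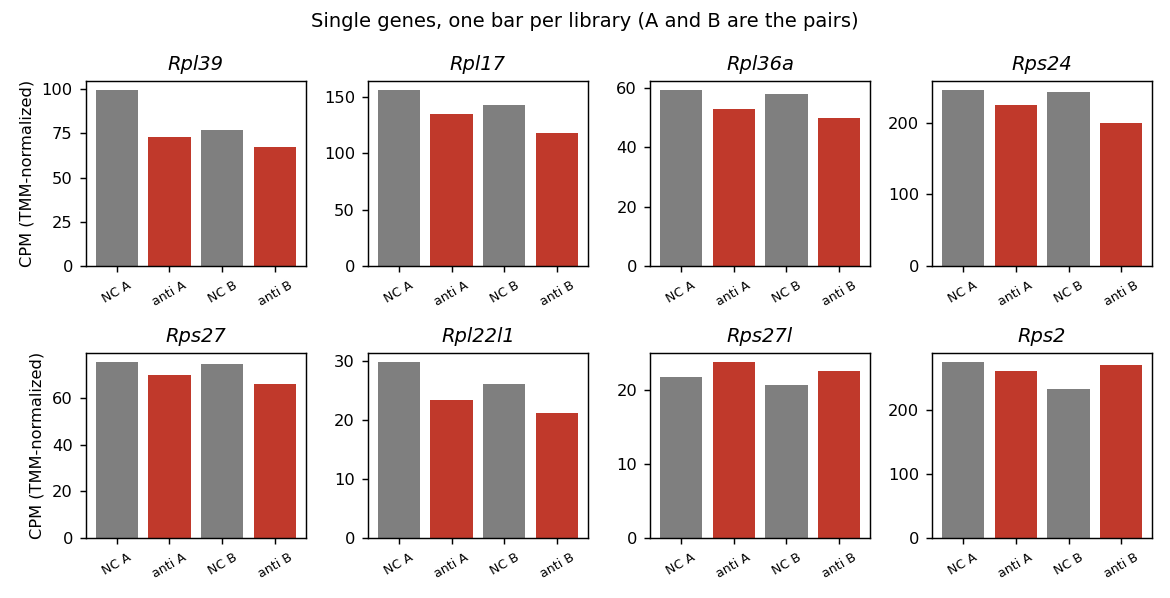
CPM (TMM-normalized) of 8 genes, 1 bar per library, grey for NC and red for anti-miR-124, on axes that start at 0. In Rpl39, Rpl17, Rpl36a, Rps24, Rps27 and Rpl22l1 both red bars are below both grey bars, in Rps27l both are above, and in Rps2 the pairs differ in direction.

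Grouped by role, no part of the ribosome held a gene past the adjusted threshold. The stalk genes Rplp0, Rplp1 and Rplp2 had log2 fold changes of -0.04, -0.06 and 0.05, with that of Rplp0 turning to 0.02 under TPM scaling. Rpl5 and Rpl11, which bind 5S ribosomal RNA and hold back the p53 regulator Mdm2 when ribosome assembly fails, had -0.11 (SE 0.10) and -0.03 (SE 0.09, 0.03 under TPM scaling). Of the 4 large subunit genes next to the peptidyl transferase centre, 1 was lower and 1 higher in both pairs, with a median of -0.03 that turned to 0.03 under TPM scaling. Of the 7 genes at the tunnel exit, 6 were lower and 1 higher in both pairs, with a median of -0.08. Under TPM scaling 2 were lower in both pairs, and after the length correction 3. For comparison, 57.7% of all 78 members and 24% of all genes tested were lower in both pairs. The 7 genes include 2 of the 4 members with an unadjusted p under 0.05 (edgeR). The 4 genes of the mRNA entry and decoding site had a median of -0.04, with 2 lower in both pairs, and a median of 0.02 under TPM scaling.

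Rps6, the substrate of S6 kinase and a common readout of mTOR signalling at the protein level, had 3933 and 4250 counts in the NC libraries against 4192 and 4230 in the anti-miR-124 ones, with overlapping groups and a log2 fold change of -0.03 (SE 0.08). Rps27a, made as a fusion to ubiquitin, had -0.10 (SE 0.08), and Rpsa, also known as the laminin receptor, -0.03 (SE 0.10). The X-linked Rps4x had -0.10 (SE 0.08) and Rpl10 -0.04 (SE 0.10). The values of Rps6, Rpsa and Rpl10 turned to between 0.02 and 0.03 under TPM scaling. Diamond-Blackfan anaemia is an inherited failure of red cell production. Of 15 members listed for it here, which need not be all of its genes, 10 were lower and 0 higher in both pairs. Among all 78 members tested, 57.7% were lower and 6.41% higher in both pairs, against 24% and 22.8% of all genes tested. The median log2 fold change of the 15 was -0.09. Under TPM scaling 3 were lower and 2 higher in both pairs, and after the length correction 7 were lower and 0 higher. No group of genes was compared with another by a test.

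The letters around the annotated starts are shown for 4 of the 5 lower genes, for Rplp2 and Rps6, whose groups overlapped, and for Rpl22l1, a paralog outside the rule. Each line runs 5′ to 3′ from 10 bases before the annotated start to 15 bases from it (RefSeq, GRCm38.p6), with the longest run of a C and at least 4 more pyrimidines in capitals. The windows are chrX:37085208-37085232 (minus strand) for Rpl39, chrX:134585644-134585668 (plus) for Rpl36a and chr14:24490668-24490692 (plus) for Rps24. They are chr3:90213634-90213658 (minus) for Rps27, chr7:141447641-141447665 (plus) for Rplp2, chr4:86857353-86857377 (minus) for Rps6 and chr3:28805498-28805522 (plus) for Rpl22l1.
Rpl39: gctccgcctctagcgaCTTCTTCTa
Rpl36a: cccaggcaccgcctataaaCTTCCg
Rps24: gctggggtCCTTCCTTgcgcgttga
Rps27: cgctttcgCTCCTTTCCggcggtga
Rplp2: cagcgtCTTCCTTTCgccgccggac
Rps6: gaagtcgggCCTCTTTTTCgtgacg
Rpl22l1: gcgcaagcccgttCTCTTCCCacgg

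Every window shown holds such a run, so these windows cannot tell whether runs go with lower values. Among other named members with overlapping groups, some had such a run in this window (Rps2, Rpl31 and Rpl13a). Others had none (Rplp0, Rpsa, Rpl5, Rpl11, Rpl10, Rps4x and Rpl41). A link between runs and lower values was not tested. RefSeq promoters were found for 61 of the 81 genes. The annotated start itself was a C followed by at least 4 pyrimidines in 14 of 61 genes (23.0%), against 2.69% of 16268 protein-coding genes. A run of this kind beginning within 10 bases of the start stood in 39 of 61 (63.9%), against 35.3%. In the 300 bases around the start, the letters CCGGAAG, which ETS factors bind, stood on either strand in 25 of 61 genes (41.0%), against 13.2% of all. The letters ATGGCGGC of the YY1 motif were found in 4 (6.56%, against 3.57%), and TATAAA in 7 (11.5%, against 14.6%). The motifs were counted separately, whether or not they overlapped. The median GC content of these 300 bases was 56.7% in both sets. A match of letters is a description and not a measured site.

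Of the ribosomal protein genes whose symbols the rule leaves out, Rpl22l1 had the lowest value among those named here. Rps3a1 had a log2 fold change of -0.05, and Fau, made as a fusion to a ubiquitin-like protein, of -0.03. Rpl22l1, the paralog of Rpl22 that takes its place when Rpl22 is lost, had 483 and 474 counts for NC and 401 in each anti-miR-124 library. The log2 fold change of Rpl22l1 was -0.33 (SE 0.11, adjusted p = 0.989, quasi-likelihood test in edgeR), and that of Rpl22 -0.06 (SE 0.07). Rpl22l1 made up 48.7% and 46.7% of the summed TPM of both genes for NC and 44.3% and 41.8% for anti-miR-124. Rpl36al, Rpl7l1 and the pseudogene Rps4l had log2 fold changes of -0.06, 0.00 and 0.09. Many ribosomal protein genes have near-identical processed pseudogenes, and how shared reads were counted is not given in the sources used here. The 190 pseudogene rows whose symbol is such a gene name with the ending -ps together held 52.5 to 59.7 CPM per library. The 81 genes held 12240 to 13850 CPM. Pseudogenes with other names were not summed, and of these Rps4l held 29.7 to 32.9 CPM. Of the 25 pseudogenes with that ending that were tested, 0 had an adjusted p under 0.05 and 1 an unadjusted p under 0.05 (edgeR).

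Other parts of the translation machinery gave 0 genes past an adjusted p of 0.05 by edgeR's test as well. Of the 15 tested genes for translation factors and other TOP mRNAs, 7 were lower and 3 higher in both pairs, and their median log2 fold change was -0.05 (0.01 under TPM scaling). Eef2, the elongation factor that moves the ribosome along, had 24687 and 26313 counts in the NC libraries against 27205 and 29181 in the anti-miR-124 ones (log2 fold change 0.07, SE 0.04). Eef1b2, an exchange factor for elongation factor 1, had -0.14 (SE 0.07). The 33 ribosome biogenesis genes had a median of 0.01, with 12 higher and 11 lower in both pairs. The 77 genes of the mitochondrial ribosome had a median of -0.01, with 14 higher and 22 lower in both pairs. The 20 translation control genes had a median of 0.02, with 5 higher and 5 lower in both pairs. These counts followed the shift of all genes under TPM scaling, with 14 higher and 4 lower for biogenesis, 40 and 11 for the mitochondrial ribosome, and 9 and 2 for translation control. An unadjusted p under 0.05 was found for 1 biogenesis gene, the RNA polymerase I subunit Polr1b (log2 fold change 0.25, SE 0.10), and 1 translation control gene. This was Eif2ak2, the interferon-induced kinase that halts initiation on double-stranded RNA, which had 141 and 124 counts in the NC libraries against 262 and 497 in the anti-miR-124 ones, a log2 fold change of 1.42 (SE 0.27, adjusted p = 0.957, quasi-likelihood test in edgeR).

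**Figure D5:**
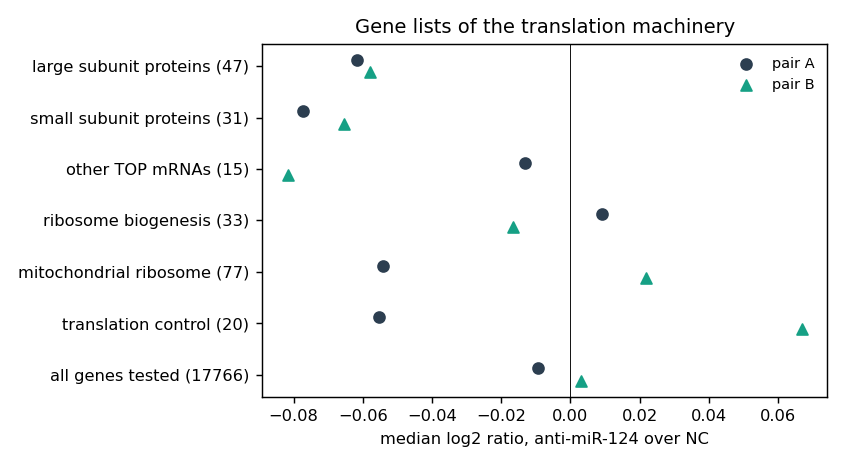
Median log2 ratio of the anti-miR-124 over the NC library (CPM, TMM-normalized) for lists of the translation machinery, circles for pair A and triangles for pair B, with the number of tested genes in brackets. Ribosomal protein genes of both subunits and other TOP mRNAs lie left of 0 in both pairs (all 3 of these lists turned to the right in pair A under TPM scaling), while the other lists differ in sign between the pairs (the mitochondrial ribosome and translation control lists were right of 0 in both pairs under TPM scaling).

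Other signals differed between the same libraries, and their part in these results was not tested. The 23 lens genes took 2.10% of all counts in the pair A NC library and at most 0.00829% in the other 3 libraries, with none at 0. Of the TPM sum they took 0.02% in each of those 3 libraries and 6.73% in the pair A NC library. With lens genes left out of the totals, the ribosomal protein genes took 1.40% of counts in that library, and with lens genes left out before normalization 42 genes were lower and 8 higher in both pairs. Summed CPM of the 30 interferon genes was 105 and 114 for NC and 242 and 403 for anti-miR-124 in pairs A and B, with 1 gene at 0 in the pair A NC library and 2 at 0 in that of pair B. The 20 microglia genes had 177 and 138 against 165 and 399, the 16 reactive glia genes 796 and 567 against 589 and 1125, and the 5 blood genes found 83.3 and 141 against 306 and 86.9. The retinal lists varied less, with 12730 and 12998 against 13021 and 13559 CPM for 14 rod genes, 1069 and 1100 against 1100 and 998 for 12 progenitor genes, and 2075 and 1974 against 1976 and 2257 for 10 Müller glia genes.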

How the data were processed

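RNA-Seq was performed on total RNA of mouse retina with a directional library kit. The table that the authors deposited holds raw, unnormalized counts of reads on each gene, with gene lengths and positions. Its other 4 columns of sample values, RPKM, were not used. HISAT2 and the build mm9 are named in the submitters' processing notes, but of 36834 gene symbols matched to RefSeq GRCm38, 99.8% overlapped it in position. The counting program is not given in the sources used here. Libraries were grouped by the eye named in each column and paired by the shared number, without knowing which pair is replicate 1. Depth was 16317239 to 18726963 counts per library, and no libraries were duplicates (chi-square per degree of freedom at least 3.44).

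Differences were tested on counts with edgeR's quasi-likelihood test (edgeR 4.0.16, R 4.3.3), with TMM normalization, edgeR's filter on low counts, no covariate, both directions, and Benjamini-Hochberg adjustment over all genes tested. The procedure was tested on simulated data whose spread followed the trend over genes of like level, without differences in spread from gene to gene. With spreads taken gene by gene, the simulation gave more false calls. Log2 ratios within pairs were taken from CPM with a prior count of 2, and TPM from counts and deposited lengths. Alternatives were other normalizations and filters, DESeq2 1.42.0, a replicate block, and leaving out each library. GC and length corrections, a crossed pairing and changes to the gene list were added after the data were seen. Transcript lengths came from GENCODE M21 and start sequences from RefSeq GRCm38.p6. Python 3.11.15 with pandas 2.3.3 and numpy 2.4.6 was used.

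The genes and lists were chosen with earlier results of these data known. Named genes were the 5 higher and 5 lower members with the smallest p-values, the 5 members of highest and lowest mean TPM, all members with a stalk, 5S, regulated, X-linked or paralog role and the parents of paralogs, ribosomal proteins outside the rule, and at most 1 gene per direction of each other list. The values of 1 gene named by this rule are not reported here.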

Additional observations from a re-analysis of the deposited data

How the results depend on the processing

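No member had an adjusted p-value under 0.05 under any alternative except 1, Rpl39, without the filter on low counts. Genes past that threshold among all tested numbered 0 with TMM, 379 without the filter, 36 with DESeq2, 20 under TPM scaling and 0 to 256 with each library left out. Over all genes, libraries with the same number did not deviate together (correlation of deviations -0.162), although 76 (NC) and 73 (anti-miR-124) of 78 members were higher in pair A. Whether libraries of 1 number share mice is not given in the sources used here. With a replicate block 0 genes passed, and 2 members were lower at an unadjusted p under 0.05, against 4. Crossing the pairs as a block gave 160 genes and 0 members. That count of 4 became 1 under TPM scaling and 0 to 8 with each library left out. Members higher in both pairs numbered 8, against 5, with total counts, without the filter, without lens genes and with the length correction. Under TPM scaling 16 were higher and 12 lower, and the median of pair A was 0.042. The median log2 fold change ranged from -0.12 to 0.01 with each library left out and from -0.07 to 0.00 otherwise. The cause was not tested for these changes.

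Of 416 values of the 26 named members under the alternatives, 34 differed in sign from the main value, 24 of them with a library left out. Under TPM scaling the sign turned for Rps14 (0.036), Rpl41 (0.013), Rpl3l (0.038), Rplp0 (0.018), Rpl11 (0.025), Rps6 (0.022), Rpsa (0.027), Rpl10 (0.017) and Rpl3 (0.020), and with the length correction for Rps14 (0.0098). TPM scaling also moved the median log2 fold change of all genes tested, from 0.00 to 0.05. The single-gene values given for TPM scaling include this shift. With each library left out, the log2 fold change ranged from -0.14 to 0.013 for Rplp1, -0.10 to 0.071 for Rps14, -0.15 to 0.078 for Rpl41, -0.13 to 0.061 for Rplp0 and -0.13 to 0.078 for Rpl11. It ranged from -0.13 to 0.077 for Rpsa, -0.15 to 0.087 for Rpl10, -0.089 to 0.028 for Rpl3, -0.012 to 0.10 for Rpl13a, -0.0066 to 0.17 for Rpl31 and -0.056 to 0.19 for Rps2. The ranges were -0.018 to 0.13 for Rplp2, -0.061 to 0.041 for Rpl3l, -0.24 to 0.011 for Rpl5 and -0.096 to 0.039 for Rps6. With 2 libraries per group, the median 95% interval of these genes reached 0.21 to either side of the estimate.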
